A study of Mus musculus with 11 samples.

Results

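The deposited list of accessible regions held 1912 regions, 2.01% of its 94963, that lay at the promoters of long noncoding RNA (lncRNA) genes and at no promoter of a protein-coding gene. A region was taken when its nearest edge lay within 1 kb of a GENCODE vM21 transcript start of a lincRNA, antisense, processed_transcript, bidirectional_promoter_lncRNA or macro_lncRNA gene, and when every protein-coding transcript start lay over 1 kb away. No measured value entered that choice. The regions sat beside 1704 of 9795 annotated lncRNA genes. The nearest start belonged to a lincRNA gene, a class that lies mostly between coding genes, in 1172 regions, to an antisense gene in 495, to a gene typed processed_transcript in 242, to a bidirectional_promoter_lncRNA gene in 2 and to a macro_lncRNA gene in 1.

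The cells were MPC2, 1 clone of conditionally immortalised mouse mesenchymal progenitors, and open chromatin was mapped by ATAC-seq, which reads where Tn5 transposase can cut. Undifferentiated cells (MSCs) received vehicle (DMSO, n = 3) or FG-4592 (n = 3), and osteocyte-like cells, differentiated for 3 weeks, received vehicle (n = 2) or FG-4592 (n = 3). FG-4592 (Roxadustat), a HIF prolyl hydroxylase inhibitor, was given at 50 uM for 48 hours. The list gave 1 value per region over all 11 samples, so MSCs could not be told apart from osteocytes, nor FG-4592 from vehicle, and neither the depth nor the replicate error of a sample was known. The value, here the level, was read as an average log2 CPM, the Tn5 cuts scaled for library size, a reading inferred from the values. Regions are not replicates, so differences between classes of regions are descriptions without a test, and the 95% intervals cover counting error only.

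Long noncoding RNAs are transcribed by RNA polymerase II, are usually capped and spliced, and encode no known protein. Some act in the nucleus on chromatin or on nuclear bodies, others carry snoRNAs or miRNAs in their introns or exons, and for many no function is known. Promoters of most housekeeping coding genes lie in CpG islands and stay open in many cell types, whereas CpG-poor promoters are usually open in fewer tissues. Enhancers, which lie away from coding promoters, are also open and often transcribed, and AP-1 is a transcription factor commonly bound there. HIF, the factor stabilised by FG-4592, binds a short core sequence, the hypoxia response element (HRE).

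The starts printed show how open lncRNA promoters differ in sequence: those at the highest region in 5 of the lists of named lncRNAs described further on, at the second highest gene of the list of miRNA hosts (Dleu2) and at the highest region of all (Gm6410). They were read from the RefSeq copy of GRCm38.p6 (the mm10 assembly), 5′ to 3′ on the gene's strand, from 150 bases before the start to 49 after it. Capitals mark matches on either strand to the AP-1 site (TGACTCA or TGAGTCA), the HRE core (ACGTG or GCGTG), the GC box (GGGCGG), the CCAAT box (its 5 letters) and the TATA box (TATAAA). Their regions had levels of 4.94 at Ftx, 4.71 at Airn, 6.05 at Neat1, 6.34 at Snhg8, 6.73 at Dleu2, 5.42 at Lncpint and 7.42 at Gm6410.
Ftx, chrX:103616786-103616985, minus strand: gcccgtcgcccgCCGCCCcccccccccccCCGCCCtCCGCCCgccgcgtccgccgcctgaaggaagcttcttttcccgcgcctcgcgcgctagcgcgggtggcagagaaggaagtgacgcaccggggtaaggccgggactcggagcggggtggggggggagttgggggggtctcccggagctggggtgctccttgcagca
Airn, chr17:12741248-12741447, plus strand: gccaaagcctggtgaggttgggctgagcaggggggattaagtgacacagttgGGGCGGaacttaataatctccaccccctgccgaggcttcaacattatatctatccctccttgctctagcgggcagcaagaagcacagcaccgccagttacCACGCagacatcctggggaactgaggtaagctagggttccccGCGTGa
Neat1, chr19:5845429-5845628, minus strand: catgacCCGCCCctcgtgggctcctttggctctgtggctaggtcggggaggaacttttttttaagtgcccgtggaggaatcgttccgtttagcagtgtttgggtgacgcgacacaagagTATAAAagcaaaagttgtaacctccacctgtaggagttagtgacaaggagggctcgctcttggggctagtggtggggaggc
Snhg8, chr3:123508355-123508554, minus strand: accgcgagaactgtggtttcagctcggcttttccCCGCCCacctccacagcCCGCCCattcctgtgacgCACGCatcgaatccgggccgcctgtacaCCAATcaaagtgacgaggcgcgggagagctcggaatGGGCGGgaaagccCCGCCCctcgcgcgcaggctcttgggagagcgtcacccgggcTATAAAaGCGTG
Dleu2, chr14:61682253-61682452, minus strand: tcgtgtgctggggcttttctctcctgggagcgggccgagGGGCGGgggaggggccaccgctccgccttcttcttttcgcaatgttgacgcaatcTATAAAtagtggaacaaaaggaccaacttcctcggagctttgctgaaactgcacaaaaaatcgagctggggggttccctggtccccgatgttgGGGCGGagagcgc
Lncpint, chr6:31220439-31220638, minus strand: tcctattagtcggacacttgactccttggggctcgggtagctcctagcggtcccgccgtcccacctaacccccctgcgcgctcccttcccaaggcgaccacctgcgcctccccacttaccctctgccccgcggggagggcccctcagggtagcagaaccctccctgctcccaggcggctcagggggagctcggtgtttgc
Gm6410, chr8:4678312-4678511, plus strand: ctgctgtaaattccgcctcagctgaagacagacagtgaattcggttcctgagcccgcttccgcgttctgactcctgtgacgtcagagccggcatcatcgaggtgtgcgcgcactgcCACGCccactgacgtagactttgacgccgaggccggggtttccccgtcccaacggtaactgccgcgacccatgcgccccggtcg
GC boxes stood in the windows of Ftx (3), Airn (1), Neat1 (1), Snhg8 (4) and Dleu2 (2), and none of the motifs in that of Lncpint. Airn and Snhg8 each held 2 matches to the HRE core and Gm6410 held 1. A TATA box lay before the starts of Neat1 and Dleu2, and no window of the 7 held an AP-1 site. Over all 14562 lncRNA starts, windows of the same 200 bases held a GC box in 15.9%, an HRE core in 28.2%, a CCAAT box in 28.3%, a TATA box in 8.39% and an AP-1 site in 4.16%. A match is a run of letters and no measure of binding.

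Open promoters were fewer among lncRNA genes than among coding genes. Of 8066 lncRNA genes with a start over 1 kb from every coding start, 1785 (22.1%, 95% Wilson interval 21.2 to 23.0%) had a region within 1 kb, against 64.1% (63.4 to 64.7%) of 21938 coding genes. Genes typed processed_transcript had a region in 39.2% (35.2 to 43.4%), antisense genes in 24.3% (22.4 to 26.2%) and lincRNA genes in 19.7% (18.7 to 20.8%). CpG content sorted the genes more strongly than their type. A start was taken as CpG-rich when the 500 bp on either side had a GC content of at least 55% and an observed over expected CpG ratio of at least 0.6. Only 2.74% of the lncRNA genes had such a start, against 46.0% of coding genes. Of the 221 lncRNA genes with a CpG-rich start, 71.0% (64.7 to 76.6%) had a region, below the 91.6% (91.0 to 92.1%) of CpG-rich coding genes. Where starts were CpG-poor, the shares were 20.8% (19.9 to 21.7%) for lncRNA genes and 40.6% (39.8 to 41.5%) for coding genes. The part of the number of annotated starts per gene in these shares was not tested.

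**Figure D1:**
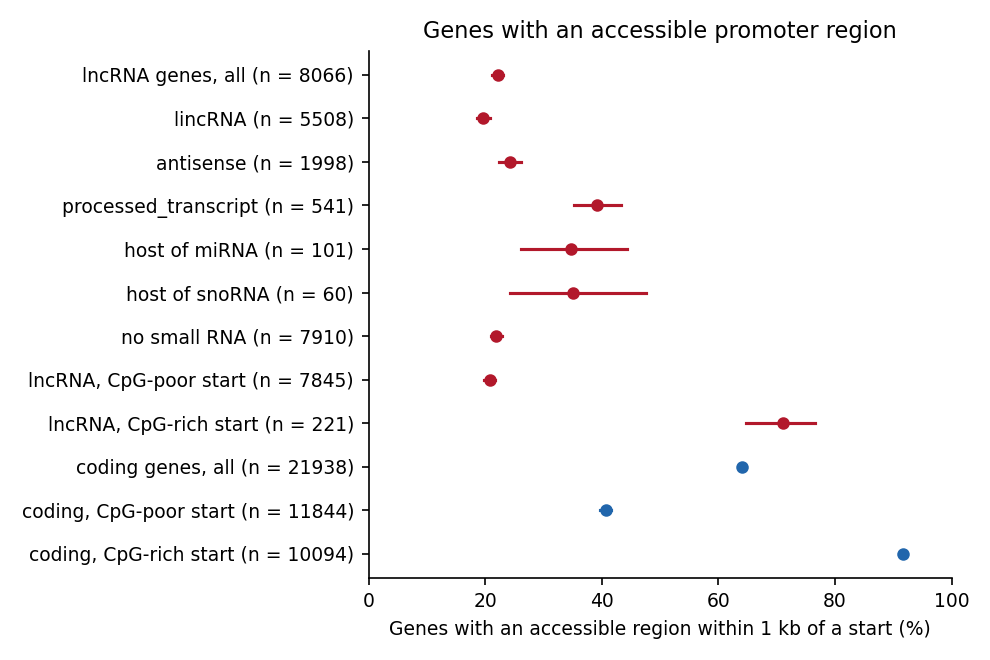
Percent of genes with an accessible region within 1 kb of a transcript start (horizontal axis), for lncRNA genes whose start is over 1 kb from every coding start (red) and for protein-coding genes (blue); points are shares and lines 95% Wilson intervals. Among lncRNA genes, CpG-rich starts stand apart at 71.0%, with the other groups between 19.7% and 39.2%.

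lncRNA-only promoters had levels between those of coding promoters and those of regions away from all starts. Their median level was 2.55 (95% interval 2.47 to 2.65). The middle 50% of the regions lay between 1.57 and 3.81, the lowest at -0.48 and the highest at 7.42. The 17852 regions within 1 kb of a coding start had a median of 4.32 (4.27 to 4.36), and the 73426 regions over 1 kb from every annotated start had 1.89. Regions of genes typed processed_transcript had a median of 3.29, lincRNA regions 2.59 and antisense regions 2.24. The median sat 1.76 below coding promoters on the log2 scale (the difference was -1.76) and 0.66 above regions away from starts.

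The gap was smaller among regions of like width. lncRNA-only regions had a median width of 552.5 bp, coding promoters 953 bp and regions away from starts 408 bp, and across the 1912 regions the level followed log2 width with Pearson's r = 0.89 and Spearman's rho = 0.90, a description over regions that share all libraries. Per kb of width the difference from coding promoters was -0.94, and within 10 bins of width it averaged -0.30, lower in 10 of 10 bins. Against regions away from starts the values were 0.24 per kb and 0.18 within bins, higher in 10 of 10. In the bins up to 701 bp the differences from coding promoters stayed between 0.00 and -0.12, and in the 3 widest bins they lay between -0.57 and -0.78.

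The regions divided by CpG content and by whether they covered the start itself. A CpG-rich start lay at 154 of the 1912 (8.05%, 6.92 to 9.36%), against 8747 of the 17852 coding promoter regions. The median level was 4.17 (3.60 to 4.75) at CpG-rich starts and 2.49 (2.38 to 2.57) at CpG-poor starts. Coding promoters had 5.22 (5.19 to 5.25) at CpG-rich and 2.96 (2.91 to 3.03) at CpG-poor starts, so that the differences from coding promoters of the same CpG class were -1.06 and -0.48, and within bins of width 0.11 and -0.19. The start lay inside the region in 45.9% (877 regions), against 74.3% of coding promoter regions. The 105 regions that covered a CpG-rich start had a median of 5.12 (4.75 to 5.39), where coding promoters that covered a CpG-rich start had 5.35 (5.32 to 5.37). Within bins of width those groups differed by -0.04 on average, lower in 4 and higher in 5 of 9 bins. The 49 regions that lay beside a CpG-rich start had a median of 2.47 (1.92 to 2.75). The 772 regions that covered a CpG-poor start had a median of 3.14 (3.01 to 3.31), against 3.99 (3.93 to 4.04) in coding promoters of that kind, a difference of -0.85 that averaged -0.24 within bins of width, lower in 7 and higher in 3 of 10. The 986 regions that lay beside a CpG-poor start had 2.02 (1.94 to 2.12), where coding promoter regions beside a CpG-poor start had an interval of 1.84 to 1.96 around their median and regions away from starts had a median of 1.89. Levels of regions beside a start did not climb with nearness to it: the medians were 1.87 at up to 250 bp, 2.05 at up to 500 bp, 2.09 at up to 750 bp and 2.15 at up to 1000 bp.

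**Figure D2:**
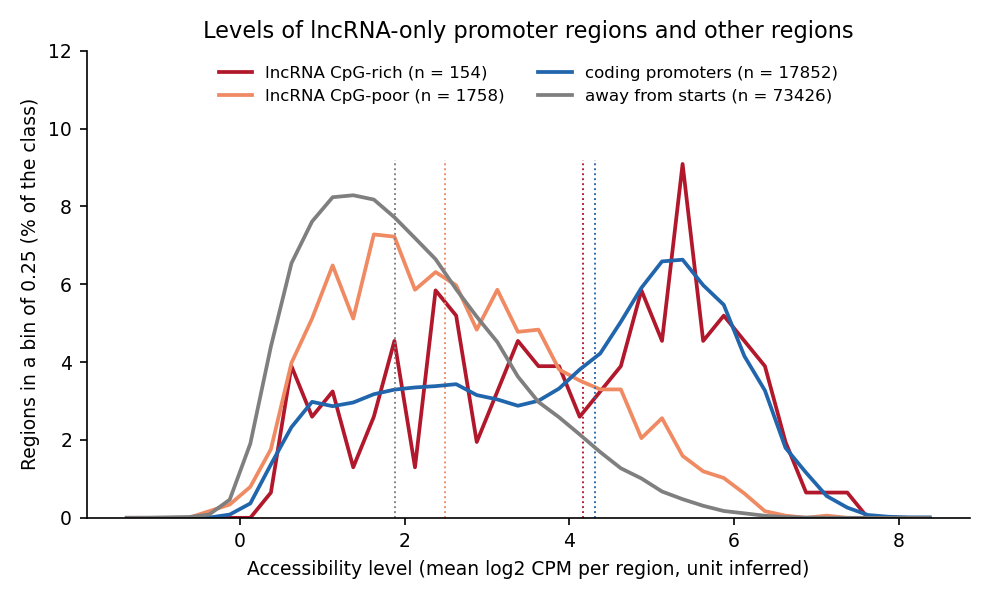
Distribution of levels (horizontal axis, log2 CPM as inferred) as the percent of each class in bins of 0.25, for lncRNA-only promoter regions with a CpG-rich (dark red) or CpG-poor (orange) start, coding promoter regions (blue) and regions away from all starts (grey); dotted lines are medians. The medians are 4.17 and 2.49 for the CpG-rich and CpG-poor lncRNA regions, 4.32 for all coding promoters and 1.89 for regions away from starts.

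**Figure D3:**
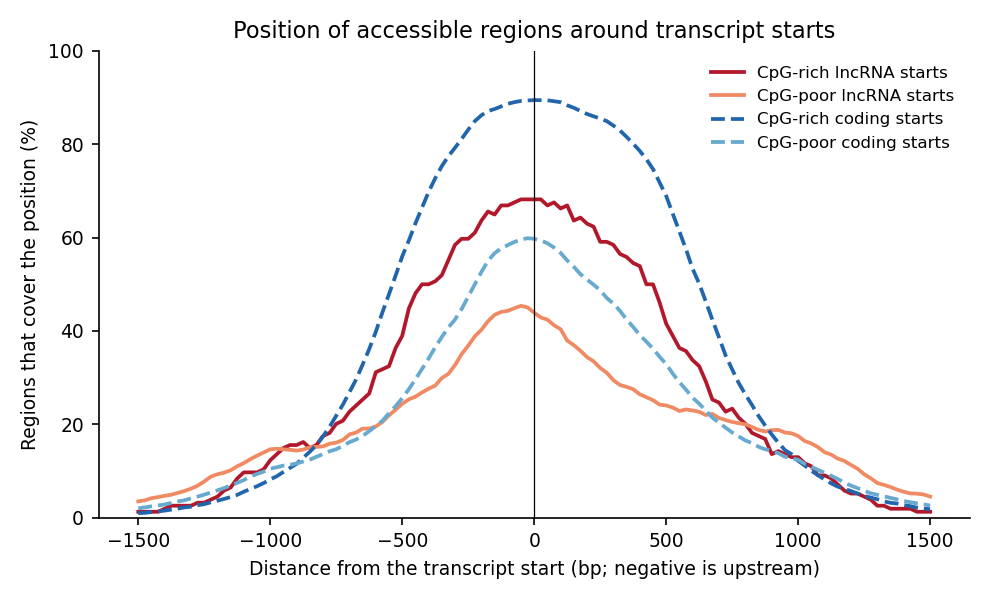
Percent of regions that cover each position around the nearest transcript start (horizontal axis in bp, negative upstream), for CpG-rich and CpG-poor starts of lncRNA genes (solid) and of coding genes (dashed). The start itself was covered by 68.2% of CpG-rich and 43.9% of CpG-poor lncRNA regions, against 89.4% and 59.7% for coding starts.

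Position relative to the gene was nearly symmetric. The midpoint of the 877 regions that covered a lncRNA start lay upstream of it in 52.0% (48.7 to 55.3%), with a median offset of -8 bp and quartiles of -122 and 106 bp. In coding promoters that covered a start the midpoint lay upstream in 42.2% (41.4 to 43.1%), with a median offset of 19 bp downstream.

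Shares of the AP-1 site, the HRE core and the GC box differed between CpG-rich and CpG-poor starts. In the central 200 bp an AP-1 site stood in 13.5% (12.0 to 15.2%) of regions at CpG-poor lncRNA starts, near the 13.8% (13.6 to 14.1%) of regions away from starts and above the 7.73% (7.20 to 8.30%) of CpG-poor coding promoters. At CpG-rich lncRNA starts it stood in 3.25% (1.39 to 7.37%), and in 1.63% of CpG-rich coding promoters. Over whole regions those 2 shares were 14.3% and 12.1%. Among CpG-poor lncRNA starts, the share was 12.4% where the region covered the start and 14.4% where it lay beside it, with intervals that overlapped. Over whole regions that order turned, with 27.5% and 24.8%. An AP-1 site then stood in 26.0% of all CpG-poor lncRNA regions, 23.7% of regions away from starts and 18.1% of CpG-poor coding promoters. The HRE core stood in 58.4% (50.5 to 65.9%) of CpG-rich and 26.6% (24.6 to 28.7%) of CpG-poor lncRNA regions, against 52.4% and 32.9% in coding promoters and 19.8% away from starts. Over whole regions the order of the CpG-rich classes turned, with the core in 83.8% of lncRNA regions and 92.6% of coding promoters. The core holds a CpG, and the part of CpG content in these shares was not tested. The GC box, bound by Sp1 family factors, stood in 50.6% of CpG-rich and 11.7% of CpG-poor lncRNA regions, against 58.9% and 21.9% in coding promoters and 5.43% away from starts. The CCAAT box stood in 16.2% of CpG-rich lncRNA regions and 22.9% of regions away from starts. Over whole regions, which are wider at promoters, that order turned, with 55.8% and 44.8%.

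**Figure D4:**
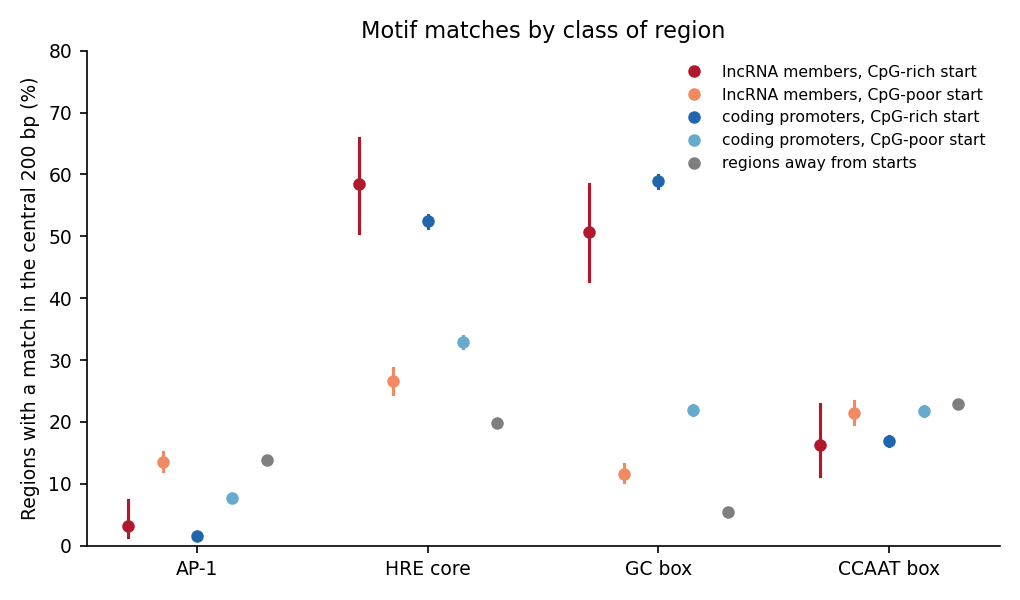
Percent of regions with a match in the central 200 bp (vertical axis) to each of 4 motifs, by class of region; points are shares and lines 95% Wilson intervals. CpG-poor lncRNA regions lie beside regions away from starts for AP-1 (13.5% and 13.8%), and CpG-rich ones beside CpG-rich coding promoters for the HRE core (58.4% and 52.4%).

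Regions with and without an AP-1 site at CpG-poor lncRNA starts had median levels of 2.33 (2.14 to 2.55) and 2.51 (2.41 to 2.61), and per kb of width 3.39 and 3.34. A TATA box in its usual place, 20 to 40 bases before the start, was rare: it preceded 16 of 1340 lncRNA starts covered by the regions (1.19%, 0.74 to 1.93%), against 0.83% of the nearest coding starts covered by a region. All 16 were starts of minus-strand genes, 16 of 647 (2.47%), with 0 of 693 on the plus strand, whereas over all lncRNA starts the same search found 58 of 7510 on the plus and 84 of 7052 on the minus strand. The 16 starts belonged to 10 genes, whose regions ranged from 6.73 at Dleu2, 6.34 at Snhg8, 6.05 at Neat1 and 5.66 at 2610035D17Rik to 2.28 at Gm34921 and 1.85 at AC111128.2.

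Many of the genes had no given name. In 92.3% of regions the nearest gene carried an automatic or clone-based symbol, as in 7 of the 10 highest, and all 10 of those covered the start. Gm6410, a lincRNA gene on chromosome 8, was highest at 7.42 (chr8:4677248-4678874), a level above 99.97% of all regions in the list. Carmn, known as the host of smooth muscle miRNAs and from vascular and heart muscle, had 7.06 over 2328 bp. The start of Zswim6 had 7.06, and RefSeq gives this gene as protein-coding, so its place here depends on the annotation. Next were 6720427I07Rik (6.84), Dleu2 (6.73), Gm15287 (6.70), Gm11527 (6.56), A230028O05Rik (6.51), 1700028E10Rik (6.45) and Gm16046 (6.43). Of the 10, 7 had a CpG-rich start, and Carmn, A230028O05Rik and Gm16046 did not.

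The region at Gm11527 also held a tRNA gene, so its level cannot be given to either gene. The lncRNA start lay 2 bases inside the end of a 72-base tRNA-Gln gene of the RefSeq annotation, on the same strand. The stretch is printed with the tRNA gene in capitals and 50 bases on either side.
Gm11527, chr11:95859122-95859293, minus strand: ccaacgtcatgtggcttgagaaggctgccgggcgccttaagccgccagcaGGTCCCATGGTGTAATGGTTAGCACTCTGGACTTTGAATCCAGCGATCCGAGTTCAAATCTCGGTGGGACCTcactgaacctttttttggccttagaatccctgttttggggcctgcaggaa
Transfer RNA genes are read by RNA polymerase III from promoters inside the gene. In all, 10 of the 1912 regions overlapped a tRNA gene (0.52%, 0.28 to 0.96%), against 0.18% of coding promoter regions and 0.13% of regions away from starts. Their median level was 5.33 (2.99 to 5.91), against 2.55 in the other lncRNA-only regions. Their median width was 1197.5 bp against 552 bp, and per kb the medians were 5.16 and 3.39. Those of Gm11527, Gm11205 (5.91), AC154766.4 (5.64) and Gm26912 (5.59) were highest, and 8 of the 10 covered the lncRNA start.

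The widest region was the one at Dleu2, at 2487 bp. Gm17501 followed at 2428 bp with a level of 6.33. Its start lay 2113 bp from that of Ccn1, which encodes a matricellular protein of connective tissue, and the region cleared the coding start by over 1 kb. Carmn had 2328 bp, 1700031P21Rik 2236 bp and Gm38182, inside the protocadherin gamma cluster, 2178 bp. At the low end, Gm42457 had -0.48 and Gm47237 -0.35, each over 200 bp.

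Most genes, 1478 of 1704 (86.7%), had 1 region, 194 had 2 and 32 had 3 or more. Lncpint, a p53-regulated lncRNA, had the most, with 6 regions between 2.44 and 5.42 along 137924 bp, and 5 of them covered a start. The highest also covered the start of 2210408F21Rik, a gene on the opposite strand whose start lay nearer to its middle. The 3110039I08Rik gene (Mir100hg in RefSeq) had 5 between 1.11 and 4.97, of which 3 covered a start. Mir99ahg, its counterpart with a related miRNA cluster, had 5 between 1.89 and 5.39, and 3 covered a start. Ptprv, the osteoblast phosphatase OST-PTP, which GENCODE types as processed_transcript, had 5 regions between 1.73 and 2.71 within 24098 bp, the lowest of them nearer to a start of Gm10535. A further 28 genes had 3 regions each, Pvt1 and Mir670hg among them, and so tied for the next place. The genes differed in the number of annotated starts, with 40 at 3110039I08Rik, 16 at Mir99ahg, 14 at Lncpint and 11 at Ptprv, and from 1 to 20 among the genes with 3 regions.

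Regions at hosts of small RNAs had higher medians than other lncRNA-only regions. The 22 regions at genes with a snoRNA on the same strand had a median level of 5.00 (4.15 to 5.33), the 52 at genes with a miRNA 4.01 (2.44 to 4.77), and the 1840 at other genes 2.52 (2.46 to 2.62), which lies inside the miRNA host interval. Host regions were wider, with median widths of 1161.5 bp and 915.5 bp against 546 bp, and per kb the medians were 4.72 (4.12 to 5.16), 3.93 (3.56 to 4.35) and 3.37 (3.33 to 3.42). A region lay within 1 kb of 35.0% (24.2 to 47.6%) of snoRNA hosts, 34.7% (26.1 to 44.3%) of miRNA hosts and 21.9% of lncRNA genes without either. The regions sat at 34 genes that held 71 annotated miRNA genes, where clusters shared by overlapping hosts count for each. Hosts of let-7, a family that restrains growth and marks differentiated cells, were named after their values were seen. They were 6720427I07Rik with 6.84 (Mirlet7a-1, Mirlet7d and Mirlet7f-1), Lncppara with 5.99 (Mirlet7b and Mirlet7c-2), Mir99ahg with 5.39 (Mirlet7c-1), 3110039I08Rik with 4.97 (Mirlet7a-2) and Gm49317, which holds the same Mirlet7a-2, with 4.29, each at its highest region. The region of Gm49317 is also counted among those of 3110039I08Rik. Gm20732, which held Mir30d, had 6.17, and A330023F24Rik, which held Mir29b-2 and Mir29c, miRNAs known to target collagen mRNAs, had 5.80.

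Among 90 named lncRNAs in 9 lists, 41 had such a region, against 1704 of all 9795 lncRNA genes (17.4%). Of the others, 16 had a region only where a coding start was also near, 27 had none within 1 kb, 2 were of another gene type and 4 were not found by symbol.

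In the X inactivation list 3 of 5 genes had a region. Jpx and Ftx, which promote Xist transcription, had 4.37 and, at 2 starts, 4.94 and 4.29, and Firre, which shapes the inactive X chromosome, had 4.50. No region lay within 1 kb of a start of Xist or Tsix. Chromosome X held 21 of the lncRNA-only regions (1.10%), against 1.64% of all regions in the list, and chromosome Y held 1. The median level of the 21 was 4.29, and other regions on X were not compared.

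Of 9 imprinted lncRNAs of the rule's types, 4 had a region and 5 had none. Airn, which silences Igf2r and begins inside it on the opposite strand, had 4.71 and, at another start, 0.90. Kcnq1ot1, inside Kcnq1 and opposite to it, had 4.60, and Nespas, opposite to Gnas, had 4.27 and 0.79. Mirg, a miRNA carrier of the Dlk1-Dio3 cluster, had 2.26 in a region 581 bp from its start, and no region lay at Meg3, Rian, H19, Snhg14 or Nctc1. Allele-specific openness was not measured.

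Nuclear and abundant lncRNAs ranged widely. Neat1, the scaffold of paraspeckles, had 6.05 in a region shared with Frmd8os. Malat1, a nuclear speckle RNA, had 5.75 in a region 363 bp from an annotated start and 3.51 in one that covered a start. The 1700020I14Rik gene (Oip5os1 or Cyrano, which triggers decay of miR-7) had 5.27, 2900097C17Rik (Norad, a decoy of Pumilio proteins) 3.12 and Miat 2.65. The region of Tug1 covered the start of the coding gene Morc2a as well.

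Of 17 snoRNA hosts of the rule's types, 9 had a region and 7 more had one shared with a coding start. Snhg8 was highest with 6.34, then Snhg5 with 5.49, Dancr with 5.48, Snhg6 with 5.28, Snhg17 with 5.28 and Snhg15 with 5.12. Among the shared promoters, the region of Snhg10 and Glrx5 was highest with 7.20, that of Snhg18 and Sema5a had 6.46 and that of Gas5 and Zbtb37 had 6.45. Only Snhg14, a large neuronal transcript, had no region among the 17.

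In the list of miRNA hosts the highest were Carmn (7.06), whose GENCODE gene holds no annotated miRNA and is not among the 52 host regions, and Dleu2 (6.73), which carries the tumour-suppressive pair Mir15a and Mir16-1. Dnm3os, which carries Mir199a-2 and Mir214 and is known from skeletal development, had 5.84. Mir99ahg had 5.39, Mir17hg, the host of a growth-promoting cluster, 5.18 and 3110039I08Rik 4.97. Mir155hg, best known from immune cells, had 3.67. Of the hosts listed for the nerve miRNAs Mir124 and Mir9 and the blood miRNA Mir142, Mir124a-1hg, Mir124-2hg, Mir9-3hg and Mir142hg had no region. Outside the list, Gm3764, which holds Mir9-1, had a region of 2.44.

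A lncRNA-only region lay at 2 of 10 Hox and 5 of 16 developmental lncRNAs, against 17.4% of all lncRNA genes. In the Hox list, Hoxd3os1 had 3.11 and Evx1os 0.57, Hotairm1 and Hoxa11os had a region only beside coding starts, and 6 of 10, Hotair and Hottip among them, had none. Among neighbours of developmental regulators, Dlx6os1, which overlaps the Dlx5 and Dlx6 limb and bone locus, had 5.12, Runx2os2, antisense to the osteoblast regulator Runx2, had 4.46, and Pantr1, Nkx2-2os and Six3os1 had 1.92, 1.61 and 0.53. Runx2os1 had a region of 4.79 that covered a Runx2 start, and no region lay at Sox2ot, Otx2os1, Lhx1os or Pax6os1.

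In the p53 and growth list, Lncpint had 5.42 in the region shared with 2210408F21Rik, Trp53cor1 (lincRNA-p21, upstream of Cdkn1a) 4.95 and Pvt1, downstream of Myc, 4.62. Of the heart, nerve and blood list, Bvht, a heart lncRNA beside Carmn on the same chromosome, had 5.84, and Mhrt, Rmst, Sox2ot, Mir124a-1hg and Mir142hg had none.

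**Figure D5:**
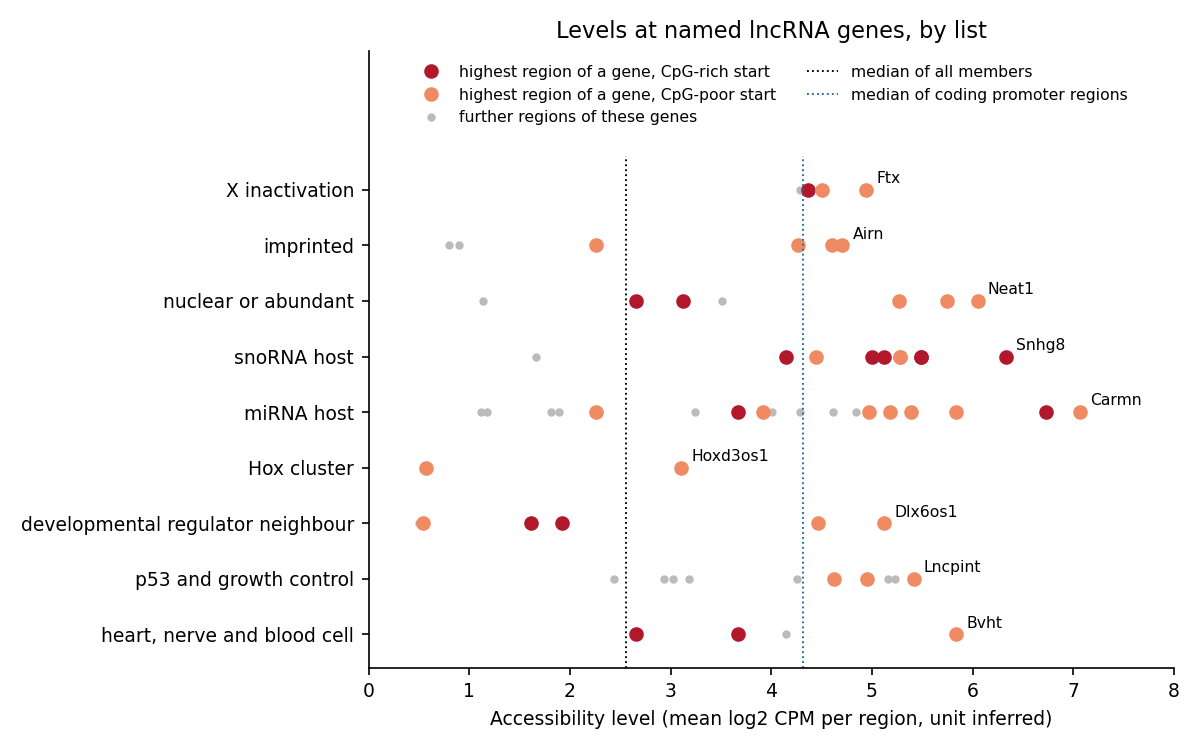
Levels (horizontal axis, log2 CPM as inferred) of lncRNA-only promoter regions at named genes, by list; large points are the highest region of each gene, coloured by CpG content of the start, and small grey points are further regions. The highest snoRNA hosts lie between 4.15 and 6.34, right of the median of all lncRNA-only regions at 2.55, and Hox and developmental genes reach from 0.53 to 5.12.

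Coding genes that mark the cells were checked in the same way, beside the 64.1% of all coding genes that had a region. Of 10 mesenchymal and osteoblast genes, 9 had a region, with highest levels from 2.33 at Alpl to 6.13 at Twist1, and Phex had none. A region lay at 1 of 4 blood genes (Spi1, 3.38), 0 of 3 epithelial genes, 2 of 3 nerve genes (up to 2.76) and 1 of 3 endothelial genes (1.89). An open promoter is no measure of expression. A list of 23 genes that the study examined or that mark the lineage was written after values were seen. Its share is therefore no test of an excess. Among these 23 genes, 4 (17.4%, 6.98 to 37.1%) were the nearest coding gene of a lncRNA-only region, against 1409 of all 21938 coding genes (6.42%). They were Runx2 (Runx2os2, 4.46), Prrx1 (Gm20471 with 3.92 and Gm26523 with 1.53), Hif1a (Gm8075, whose start lay 107887 bp away, with 3.21 and Gm15283 with 1.18) and Gpr35 (9430060I03Rik, 1.15). The start of 9430060I03Rik lay 275 bp from that of Gpr35, and its region lay 822 bp from the lncRNA start. RefSeq gives a coding start of Gpr35 within 1 kb of this region, so its place here depends on the annotation.

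A coding gene body surrounded the lncRNA start in 467 regions (24.4%, 22.6 to 26.4%), and in 434 of these the coding gene ran on the opposite strand. The share was 70.3% for antisense genes and 5.12% for lincRNA genes. In 18.2% of the 467 the start lay in a coding exon. Levels were lower inside coding genes, with a median of 2.27 (2.12 to 2.52), than outside, with 2.63 (2.52 to 2.74), and per kb the medians were 3.31 and 3.43. A head-to-head coding start within 5 kb stood at 138 regions (7.22%), whose median level was 2.61 (2.21 to 3.02), against 2.55 in the others. These regions were narrower, with a median width of 450 bp against 563 bp, and per kb their median was 3.93 (3.66 to 4.15) against 3.37 (3.33 to 3.42). By distance from the nearest coding start, the median level was 2.49 at 1 to 2 kb and 2.59 beyond 100 kb. Per kb of width it fell at each step, from 3.69 (3.38 to 4.09) at 1 to 2 kb through 3.68, 3.42, 3.39 and 3.33 to 3.30 (3.23 to 3.37) beyond 100 kb.

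Repeats filled over 50% of the bases in 2.35% (1.76 to 3.13%) of the regions, against 0.86% of coding promoters and 4.85% of regions away from starts. At the limits of the rule, the regions of 4933406C10Rik at 999 bp from a start (2.47) and Gm28183 at 998 bp (3.43) were the last inside the lncRNA window, and those of Gm20163 at 1004 bp (2.87) and Gm15640 at 1006 bp (2.51) the next outside. Dnmt3aos at 1002 bp (1.02) and Gm34418 at 1009 bp (2.35) just cleared a coding start, and Gm28180 at 998 bp (3.06) and 1810059C17Rik at 996 bp (6.58) did not. The second limit removed many regions: of 3559 near a lncRNA start, 1647 (46.3%) were also near a coding start, and their median level was 5.08.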

How the data were processed

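ATAC-seq was analysed from 1 list over 11 samples of MPC2 cells. The authors trimmed reads, aligned them to mm10 with Bowtie2, removed duplicates with Picard 2.17.8, called peaks with MACS2 2.2.7.1, merged them across samples, left out 1 sample for its quality, removed blacklisted regions, counted Tn5 cuts with pyDNase, dropped regions with few cuts and normalised with TMM in edgeR 3.24.3. A Tn5 shift was not stated. The deposited value was read as an average log2 CPM, since 2 to its power summed to 1.01276e+06 and 460 regions fell below 0. It carries no count, so depth and its precision were unknown, and no comparison between groups was made.

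Distances ran from the nearest edge of a region (mm10, 1-based) to GENCODE vM21 starts. No region ran past the end of its chromosome in GRCm38.p6. Checks of neighbour genes, TATA boxes, tRNA genes and RefSeq starts, and the choice of windows printed, were made after values were seen. Only some of the start windows read are printed, and 1 is not reported here. Symbols not in GENCODE were looked up among RefSeq synonyms, and tRNA genes and coding starts were checked in RefSeq. Motifs were searched on both strands of the central 200 bp. Medians have order statistic intervals and shares Wilson intervals (95%). Bins of width were deciles of all regions. The searches were tested on simulated data. Python 3.11.15, numpy 2.4.6, pandas 2.3.3 and scipy 1.17.1 were used.

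The genes named were the 10 highest, the 5 widest, those with the most regions, those in the lists (values for up to 6 a list, and Mir155hg, which 2 lists hold) and those at the limits of the rule. The lowest regions, the tRNA and TATA genes, the small RNA hosts outside the lists and the neighbours of coding genes were named after their values were seen. The members and lists were chosen with earlier results of these data known. Alternatives changed the windows, the minimum width, the transcripts, the gene types, the chromosomes, the CpG limits, the motifs and the scaling for width.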

Additional observations from a re-analysis of the deposited data

How the results depend on the processing

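Of 75 values recomputed under other settings, 40 stayed within the interval of the value reported (a count within 1.5 times) and 35 moved. No difference from coding promoters, the only values that could change sign, did so. Outside these values, the difference at CpG-rich starts turned from -1.06 to 0.11 within bins of width. With a window of 500 bp, 17.2% of lncRNA genes had a region, the median level was 2.75 and the difference from coding promoters -1.56. Requiring the region to overlap the start left 877 regions, 11.3% of genes, a median of 3.34, a difference of -0.98, 12.0% CpG-rich and 22.3% inside coding genes. In both settings the coding promoters stayed as they were (median 4.32), so these differences set unlike groups side by side. A distance over 5000 bp from coding starts gave 20.6% of genes, 6.72% CpG-rich and 18.7% inside coding genes. Regions at least 500 bp wide numbered 1054, with 13.8% of genes, a median of 3.64, a difference of -1.32, 10.2% CpG-rich, 20.7% inside coding genes and 10.9% with AP-1. Distances from midpoints gave 19.4% of genes and a difference of -1.95. Basic transcripts gave a difference of -2.15, 9.40% CpG-rich and 29.0% inside coding genes. Support levels 1 or 2 left 981 regions, with 25.3% of genes and 10.2% CpG-rich. The 4 further gene types gave 19.6% of genes and 30.6% inside coding genes. A GC minimum of 50% gave 9.88% CpG-rich, and 250 bp on either side gave 10.6%. AP-1 stood in 25.1% of whole regions and in 15.5% with any middle base. Scaled for width, the difference was -0.94 per kb and -0.30 within bins. Leaving out chromosome 16, or regions within 1 kb of a RefSeq mRNA start (added after seeing the data), moved none of the values recomputed. No paired analysis was possible because each region has 1 value pooled over the samples. The causes of the shifts were not tested, except that stricter limits leave fewer regions by construction. Depth, replicate error and group differences could not be assessed from 1 pooled value per region.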

Other observations

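RefSeq gave a coding transcript start within 1 kb of 77 of the 1912 regions (4.03%), 37 of them curated, with a median level of 3.25 (2.60 to 3.83). The other 1835 had a median of 2.53 (2.46 to 2.62). Among the 154 regions at CpG-rich starts, 24 (15.6%) were of this kind, and the 130 others had a median of 4.26.

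Genes with only 1 exon and spliced genes had a region in shares with overlapping intervals: 20.6% (16.7 to 25.1%) of 350 against 22.2% (21.3 to 23.1%) of 7716, with medians over their regions of 2.67 and 2.55. Regions near both a lncRNA and a coding start had a median of 5.08 (5.01 to 5.15), and regions near a coding start only had 4.21 (4.16 to 4.26). Of 403 tRNA genes on the chromosomes compared, 47.1% lay on a region and 12 lay on a lncRNA-only promoter region. Away from all starts, the 92 regions with a tRNA gene had a median of 3.57 (3.09 to 4.38). Chromosome 13 had the highest share of lncRNA-only regions among the autosomes, 3.00% of its 3462 regions, and chromosome 15 the lowest, 1.54% of 4101. The chromosomes also differed in annotated lncRNA genes: 104 such regions stood beside 594 genes on chromosome 13, and 63 beside 359 on chromosome 15.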
